A study of Homo sapiens with 131 samples.

Results

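The immediate-early genes (IEGs) of single mid-S HAP1 cells were examined by setting the 14 cells with the highest IEG score (IEG-high) against the 14 with the lowest (IEG-low), of 56 cells in the tables. The groups were chosen by measured values: the score of a cell was its mean log10(TPM + 1) over FOS, JUN, JUNB, EGR1, IER2, IER3, ATF3 and DUSP1, where TPM is the read count of a gene scaled for its length and the size of the library, minus the mean of the cell's library set. The 28 cells of middle rank were not compared. Differences in these 8 genes are therefore a description of the choice and carry no test, and the genes were left out of every gene-by-gene contrast. The number of genes at 1 TPM or more, compared below, still includes them.

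HAP1 is a near-haploid human line that came from a chronic myeloid leukaemia line and carries the BCR-ABL1 fusion. Both groups were the same untreated line, so no agent, genotype or time point separates them. The cells were stained alive with a Hoechst dye in serum-containing buffer, sorted by DNA content in mid-S phase and processed with scRR-seq, which sequences the DNA and the total RNA of the same cell. The labels name 63 mid-S cells and 5 G1 DNA libraries. The 7 mid-S cells outside the tables were not analysed here. All HAP1 cells came from one biological experiment and the labels name no cultures, so the p-values below describe the spread between these cells only. The sets were told apart by cell number alone (29 cells numbered up to 65 and 27 above), and the labels do not say what the numbering stands for. Each set gave IEG-high and IEG-low the same number of cells, 9 of the first set and 5 of the second.

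IEGs are transcribed within minutes of a stimulus from promoters that are already open, without the need for new protein. Growth factors reach them through the ERK kinases and the serum response factor (SRF) with its ternary complex partners at CArG boxes, stress through the p38 and JNK kinases, and cyclic AMP through CREB. FOS, JUN and JUNB form the AP-1 transcription factor. EGR1 is a zinc-finger factor, ATF3 a stress-induced bZIP factor that is also a known target of ATF4, and DUSP1 a phosphatase that switches MAP kinases off again. IER2 and IER3 are small early-response proteins. The transcripts are short-lived, and in cultured cells handling alone can induce them.

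The promoter stretches below are shown because they hold exact matches to DNA elements through which growth factors or cyclic AMP can reach IEGs. They come from the RefSeq windows (GRCh38.p14) of 250 bases before to 50 bases after the gene start, which were found for 7 of the 8 scored genes and for 35 of 48 other IEGs. The windows were searched on both strands with no mismatch for the CArG box, for the cyclic AMP response element TGACGTCA and for the AP-1 site TGACTCA, and no printed match overlapped one of another element. Capitals mark the matches, and each sequence reads 5′ to 3′ on the strand of its gene.
EGR1: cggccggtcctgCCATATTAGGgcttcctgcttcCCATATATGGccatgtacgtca
SRF: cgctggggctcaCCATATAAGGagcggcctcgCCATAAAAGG
DUSP1: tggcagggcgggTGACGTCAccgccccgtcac
JUND: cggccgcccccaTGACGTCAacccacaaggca
PPP1R15A: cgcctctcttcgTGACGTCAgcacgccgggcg
MAFF: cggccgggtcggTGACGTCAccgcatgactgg

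Among the scored genes, EGR1 held 2 CArG boxes (chr5:138465362-138465417, plus strand, the nearer one beginning 83 bases before the start) and DUSP1 a cyclic AMP response element (chr5:172771301-172771332, minus strand). The CArG box was present in 1.29% of all 35116 promoter windows, the cyclic AMP response element in 1.85% and the AP-1 site in 4.95%. Of the other IEGs, SRF itself held 2 CArG boxes (chr6:43171227-43171268, plus strand), and JUND (chr19:18281803-18281834, minus strand), PPP1R15A (chr19:48872351-48872382, plus strand) and MAFF (chr22:38201928-38201959, plus strand) held the cyclic AMP response element. The AP-1 site was found in FOSL2 and in none of the 7 scored windows. These are letter matches and say nothing of which factor was bound in these cells. Elements further upstream than the windows, or with a mismatch, were not searched for, so a gene without a match may still hold one.

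The scores lay between 0.384 (cell 51) and -0.399, in log10 units around the mean of the set. At the upper limit, the last IEG-high cell had a score of 0.152 and cell 73 (0.147) was the first left out. At the lower limit, cell 29 (-0.145) was the last IEG-low cell and cell 7 (-0.129) the first left out. The 8 genes summed to 274, 326 and 466 TPM (lowest, median and highest cell) in IEG-high cells, against 112.35, 167 and 292 TPM in IEG-low cells. Of the 8 genes, 7 or all 8 were above 0 in every IEG-high cell, whereas IEG-low cells had 4 to 7 of them above 0.

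**Figure D1:**
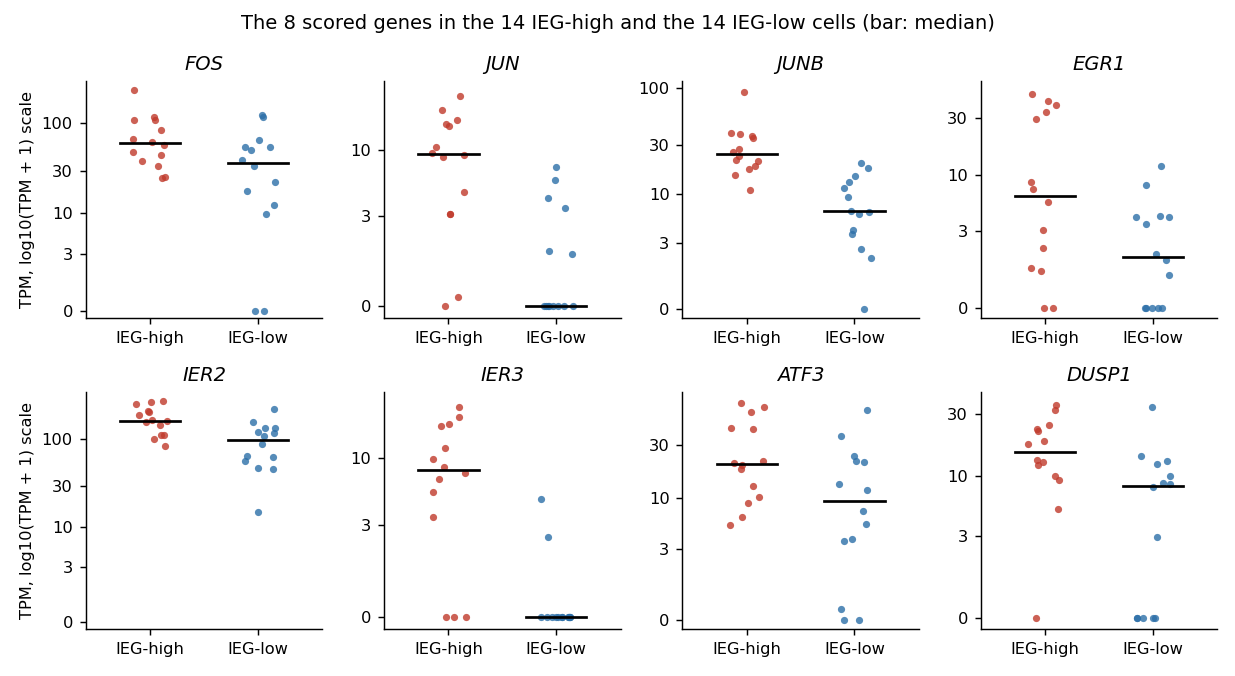
TPM of each scored gene (y axis, log10(TPM + 1) scale) in the 14 IEG-high cells (left) and the 14 IEG-low cells (right); points are cells and bars medians. The groups overlap for every gene, and IER3 and JUN have a median of 0 in IEG-low cells.

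The AP-1 genes were unequal in how far they set the groups apart. FOS (ENSG00000170345.10, hg38 chr14:75278826-75282230) had 24.9, 60.8 and 225 TPM (lowest, median and highest) in IEG-high cells, against 0, 37.2 and 123 TPM in IEG-low cells. A single IEG-high cell exceeded the highest IEG-low cell. FOS, the textbook IEG, was above 0 in 14 IEG-high and 12 IEG-low cells. JUN (ENSG00000177606.8, chr1:58776845-58784048) had 0, 9.38 and 24.2 TPM in IEG-high cells, against 0, 0 and 7.42 TPM in IEG-low cells, and was above 0 in 13 IEG-high and 6 IEG-low cells. JUNB (ENSG00000171223.6, chr19:12791486-12793315) had 11.1, 24.7 and 92.3 TPM in IEG-high cells, against 0, 6.74 and 20.3 TPM in IEG-low cells. For JUNB, 10 IEG-high cells lay above every IEG-low cell.

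Of the other transcription factors, EGR1 (ENSG00000120738.8, chr5:138465479-138469303) had 0, 6.64 and 47.1 TPM in IEG-high cells, against 0, 1.52 and 11.98 TPM in IEG-low cells. Its high values came from 5 IEG-high cells, 21, 89, 94 and 96 among them, which held 29.5 to 47.1 TPM, and the highest EGR1 value of all 56 cells, 90.6 TPM, was in a cell of middle rank. ATF3 (ENSG00000162772.17, chr1:212565334-212620777) had 5.49, 20.6 and 70.01 TPM in IEG-high cells, against 0, 9.66 and 61.6 TPM in IEG-low cells. The middle cells had a median of 22.8 TPM of ATF3, above that of IEG-high, so its order did not follow the score.

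IER3 (ENSG00000137331.12, chr6:30743199-30744548) carried the largest share of the gap in score between the groups, 18.5%, and IER2 the smallest, 7.17%. IER3 had 0, 8.26 and 22.99 TPM in IEG-high cells, against 0, 0 and 4.98 TPM in IEG-low cells, and was above 0 in 11 IEG-high, 2 IEG-low and 8 middle cells. IER2 (ENSG00000160888.7, chr19:13150411-13154911), the most abundant of the 8, had 82.2, 159 and 261 TPM in IEG-high cells, against 14.9, 97.7 and 212 TPM in IEG-low cells. DUSP1 (ENSG00000120129.6, chr5:172768096-172771195) had 0, 15.5 and 34.8 TPM in IEG-high cells, against 0, 8.29 and 34.2 TPM in IEG-low cells. The highest cells of both groups were alike for DUSP1, and the groups parted at the low end, where 5 IEG-low cells and 1 IEG-high cell were at 0.

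The scored genes were only weakly correlated from cell to cell. Over the 56 cells, with the set mean removed, Pearson's r of log10(TPM + 1) was positive for 23 of 28 gene pairs and negative for 5, with a median of 0.116. JUNB and IER2 had the highest r (0.353, Spearman's rho 0.442), followed by JUN and JUNB (0.315) and FOS and IER3 (0.30). FOS and JUN, which pair in AP-1, had an r of 0.0722. EGR1 and ATF3 had the lowest (-0.359, rho -0.363). The values of 1 cell come from 1 library, so these correlations also carry its depth and are given without a test. Against the mean of the other 7 genes, r ran from 0.0482 for EGR1, 0.0527 for ATF3 and 0.0755 for DUSP1 to 0.346 for JUN and 0.369 for IER3. With any 1 gene left out of the score, 11 or 12 of the 14 IEG-high cells and 11 to 14 of the 14 IEG-low cells stayed in their group, and no cell crossed to the other group.

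IEG-high libraries also held more genes. The number of genes at 1 TPM or more was 12069, 13816 and 14827 (lowest, median and highest) in IEG-high cells, against 12436, 12821 and 13725 in IEG-low cells. The means differed by 866 genes (permutation test within sets, 100000 draws, two-sided, p = 0.00076, Benjamini-Hochberg adjusted over 6 library measures 0.00456), by 685 in the first set and by 1192 in the second. Cell 55 was the one IEG-high cell below all IEG-low cells, and with each cell left out in turn the difference lay between 786 and 998 genes. Over the 56 cells the score had an r of 0.495 (rho 0.50) with the number of genes (r of 0.411 in the first set, 0.595 in the second). The count comes from the same RNA libraries as the score, its part in the results below was not tested, and medians with it as a further term are given beside the gene lists.

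The other library measures did not differ beyond the spread between cells. The mitochondrial share of TPM was 9.40 ± 5.72% in IEG-high cells and 7.92 ± 3.95% in IEG-low cells (SD, n = 14 each, here and below). The ribosomal protein share was 14.8 ± 3.47% in IEG-high and 15.5 ± 3.50% in IEG-low cells, and that of replication-dependent histone genes 0.0224 ± 0.0123% and 0.0397 ± 0.0442%, IEG-high first. The 50 most abundant genes took 21.9 ± 3.12% of TPM in IEG-high and 20.7 ± 1.99% in IEG-low cells. Unspliced counts summed to 502708 to 1353931 in IEG-high and 425181 to 1002614 in IEG-low cells. Adjusted p-values of these 5 measures lay between 0.296 and 0.353 (the same permutation test).

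**Figure D2:**
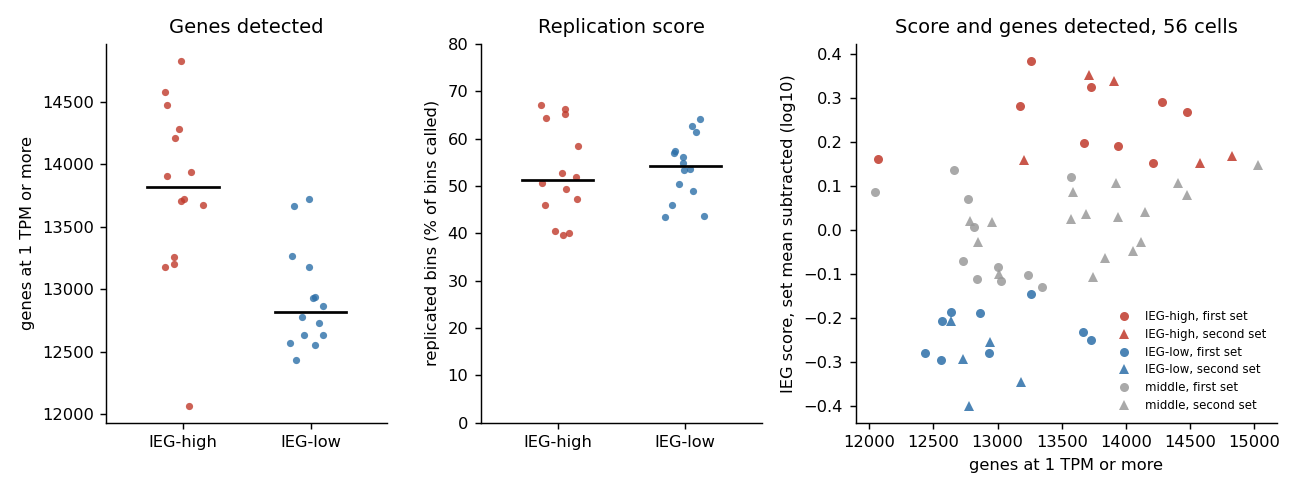
Genes at 1 TPM or more (left) and replication score (middle, % of called bins) by group, points being cells and bars medians, and the IEG score against genes at 1 TPM or more in all 56 cells (right; circles first set, triangles second set). IEG-high cells hold more genes, with a median of 13816 against 12821, while the replication scores of IEG-low cells (43.4 to 64.1%) lie inside the range of IEG-high cells.

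DNA replication, read from separate DNA libraries of the same cells, did not enter the score. The replication score, the percentage of called 40-kb bins in the 2-copy state, was 39.7, 51.3 and 67.2% (lowest, median and highest) in IEG-high cells, against 43.4, 54.3 and 64.1% in IEG-low cells. The means of 52.9 ± 9.96% in IEG-high and 53.8 ± 6.70% in IEG-low cells differed by -0.963 percentage points (permutation test within sets, p = 0.748), less than the spread in either group, by -3.60 points in the first set and 3.79 in the second. The range of IEG-low cells lay inside that of IEG-high cells. The copy state at the scored genes themselves was called for 5 of the 8; JUN and ATF3 lie on chromosome 1, one of the chromosomes the authors left out, and IER3 had no call. JUNB was in the 2-copy state in 7 of 14 IEG-high and 4 of 14 IEG-low cells (Fisher's exact test, two-sided, p = 0.44), and IER2 in 8 of 14 IEG-high and 11 of 14 IEG-low cells (p = 0.42). FOS was replicated in 13 IEG-high and 12 IEG-low cells, DUSP1 in 10 and 11, and EGR1 in all 28, with exact p-values of 1 for each, and all 5 adjusted p-values were 1.

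Beyond the 8 genes, no spliced transcript passed. Of 18924 genes tested with limma on log2(TPM + 1) with the set as a term, 0 had a Benjamini-Hochberg adjusted p under 0.05, 0% of those tested, and the lowest adjusted p was 0.431. At an unadjusted p under 0.05, 668 genes (3.53%) were higher and 369 (1.95%) lower in IEG-high cells, 1037 in all. A rank permutation test within sets also called 0 genes, with 1115 at p under 0.05. The median difference over all genes was 0.07 log2 units, IEG-high minus IEG-low, and -0.01 with genes at 1 TPM or more as a further term. Of all genes, 10621 (56.1%) had a positive difference and 8303 a negative one. All differences below are on the log2(TPM + 1) scale, which understates changes of low genes, and the genes named from here on did not pass the adjusted test in the spliced contrast.

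The 8 lowest p-values on the higher side belonged mostly to genes seen in a few cells of IEG-low. DPF3, a subunit of the BAF chromatin remodelling complex (chr14:72609034-72894101), had 0, 8.63 and 29.5 TPM in IEG-high cells, against 0, 0 and 10.1 TPM in IEG-low cells. It was above 0 in 12 IEG-high cells and 1 IEG-low cell, a difference of 2.54 ± 0.52 (SE, p = 2.28e-05, limma adjusted p = 0.431, rank permutation p = 0.0001). With cell 38 of IEG-low left out it was the one gene called (difference 2.78, limma adjusted p = 0.0374). TFCP2L1, a grainyhead-family transcription factor known from pluripotent cells (chr2:121216587-121285202), was above 0 in 13 IEG-high and 3 IEG-low cells, with a difference of 2.41 ± 0.58. RAB26, a small GTPase of vesicle traffic (chr16:2140803-2154165), had 8.22, 30.98 and 60.2 TPM in IEG-high cells, against 0, 9.19 and 68.7 TPM in IEG-low cells. METRNL, a secreted protein (chr17:83079609-83095122), was above 0 in 13 IEG-high and 5 IEG-low cells, with a difference of 2.64 ± 0.69. C9orf139, RP11-390P24.1, RP11-20G6.1 and RN7SL602P had differences of 2.21, 3.06, 2.94 and 2.27. RN7SL602P is a 7SL pseudogene whose reads may be shared with near-identical copies. It was above 0 in 10 IEG-high, 2 IEG-low and 5 middle cells. Outside IEG-high it fell short of the 20% of cells needed for testing, so its difference carries no weight.

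On the lower side the leading genes included several that every IEG-low cell expressed. SEPTIN14, a septin cytoskeleton gene (chr7:55793540-55862755), had 0, 0.875 and 7.88 TPM in IEG-high cells, against 2.15, 6.33 and 15.8 TPM in IEG-low cells, a difference of -1.91 ± 0.45 (p = 0.00016, rank permutation p = 3e-05). PAWR, a pro-apoptotic regulator also known as PAR-4 (chr12:79574979-79690964), had 18.9, 59.005 and 121 TPM in IEG-high cells, against 37.0, 130 and 172 TPM in IEG-low cells. TNFRSF10B, a death receptor for TRAIL and a member of the p53 target list, had 20.95, 46.3 and 117 TPM in IEG-high cells, against 41.9, 84.4 and 183 TPM in IEG-low cells. The difference was -1.03 ± 0.28 for PAWR and -0.92 ± 0.26 for TNFRSF10B. Cells of middle rank had medians of 75.6 TPM of PAWR and 49.8 TPM of TNFRSF10B, the latter near that of IEG-high. RAP2C, a RAS-like GTPase (chrX:132203024-132219480), had medians of 25.8 TPM in IEG-high and 58.9 TPM in IEG-low cells, with a difference of -1.68 ± 0.47. APLF, a factor of DNA end joining, was above 0 in 3 IEG-high and 10 IEG-low cells. The non-coding LINC01002, CTA-286B10.8 and LINC01355 had differences of -1.28, -1.53 and -2.35.

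**Figure D3:**
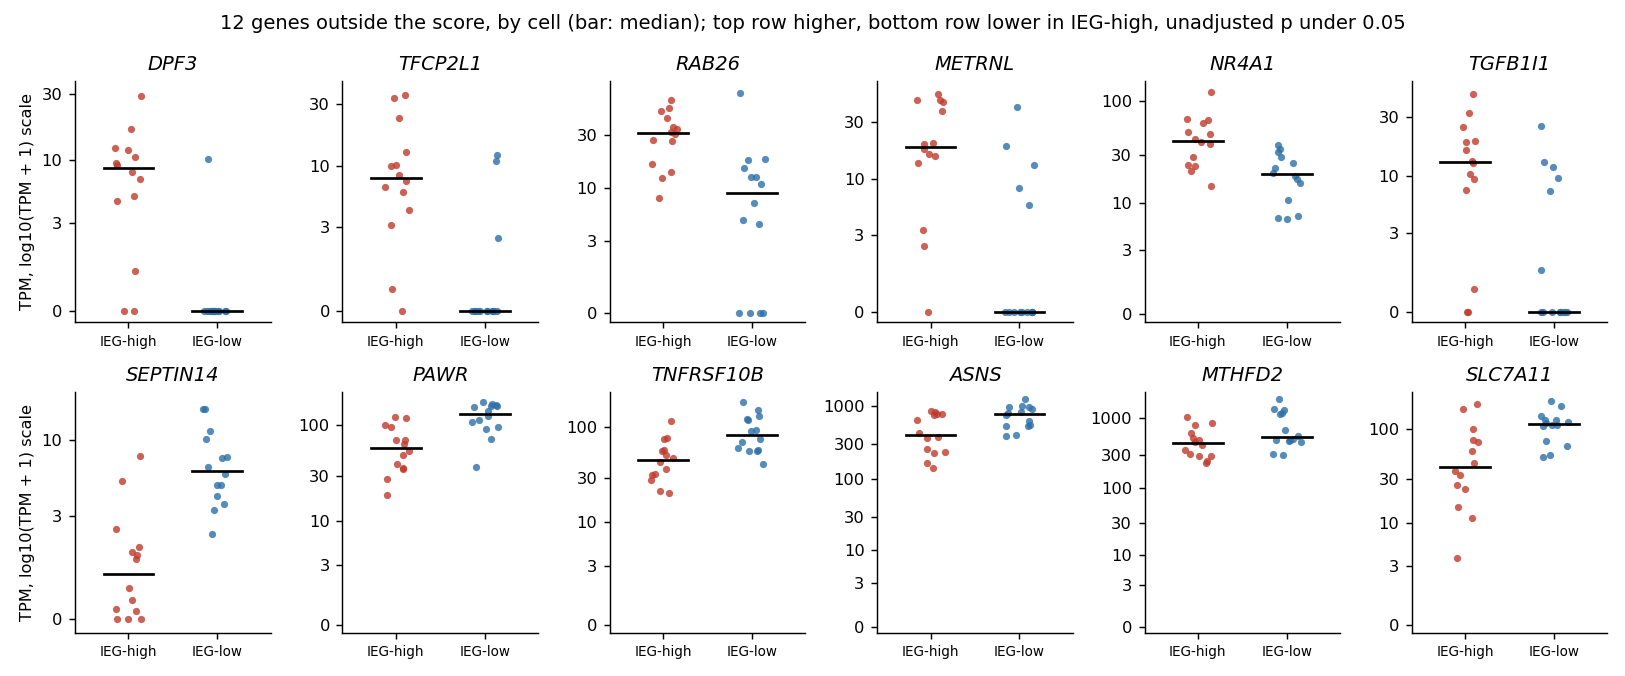
TPM by cell (y axis, log10(TPM + 1) scale) of 12 genes outside the score, IEG-high left and IEG-low right in each panel, bars being medians. DPF3 is above 0 in 12 IEG-high cells and 1 IEG-low cell, and ASNS has medians of 399 TPM in IEG-high and 779 TPM in IEG-low cells; none of the 12 passed the adjusted test.

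Most IEGs outside the score had a positive difference, and none passed. Of 48 members of that list, 44 were tested, 0 were called, 3 had an unadjusted p under 0.05 on the higher side and 0 on the lower, beside 3.53% and 1.95% of all genes. The difference was positive for 37 and negative for 7, beside 56.1% positive over all genes, with a median of 0.50 beside 0.07 over all genes, 0.29 in the first set and 0.89 in the second, and 0.30 with genes at 1 TPM or more as a further term. NR4A1, an orphan nuclear receptor and classical IEG, had 15.01, 41.5 and 121 TPM in IEG-high cells, against 6.72, 19.4 and 37.3 TPM in IEG-low cells. Its difference was 1.13 ± 0.37 (p = 0.00399, limma adjusted p = 0.779, rank permutation p = 0.00099). KLF2, a Krüppel-like factor, was above 0 in 8 IEG-high and 3 IEG-low cells, with a difference of 1.37 ± 0.49. CCN1, a matricellular protein under SRF and YAP control, had medians of 20.6 TPM in IEG-high and 6.97 TPM in IEG-low cells, with a difference of 1.52 ± 0.72. NR4A1, KLF2 and CCN1, like the other list members at an unadjusted p under 0.05 below, were singled out after their values were seen. Over all lists described, 29 members had an unadjusted p under 0.05, and with genes at 1 TPM or more as a further term 9 of them still did, all 29 with the same sign. Among the other IEGs this was CCN1 (p = 0.0242), while NR4A1 had 0.88 (p = 0.068) and KLF2 1.08 (p = 0.0934) with the term. In the rank permutation test, without the term, p was 0.0638 for CCN1 and 0.0142 for KLF2. The rank permutation p was also above 0.05 for ACTG1 (0.12), HSPB1 (0.0896) and MT1X (0.0917), which are named below.

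The direct relatives of the scored genes were mixed. JUND, the constitutive AP-1 partner, had a difference of 0.89 ± 0.53 with medians of 30.7 TPM in IEG-high and 15.045 TPM in IEG-low cells. It was above 0 in 13 cells of each group, and the tests differed (limma p = 0.104, rank permutation p = 0.00309, both unadjusted). FOSB had 0.62 ± 0.65, FOSL2 0.89 ± 0.51 and FOSL1 -0.08 ± 0.63. EGR2 and EGR3 had 0.43 ± 0.51 and 0.48 ± 0.50, and EGR4 was at 0 in all 56 cells. IER5 had 0.36 ± 0.50, and SRF, the factor of the CArG box, 0.08 ± 0.34. Among the 3 most abundant members of the list, ATF4 had medians of 532 TPM in IEG-high and 565 TPM in IEG-low cells, MYC 540 and 581 TPM, and ID2 150.01 and 130.22 TPM, IEG-high first.

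**Figure D4:**
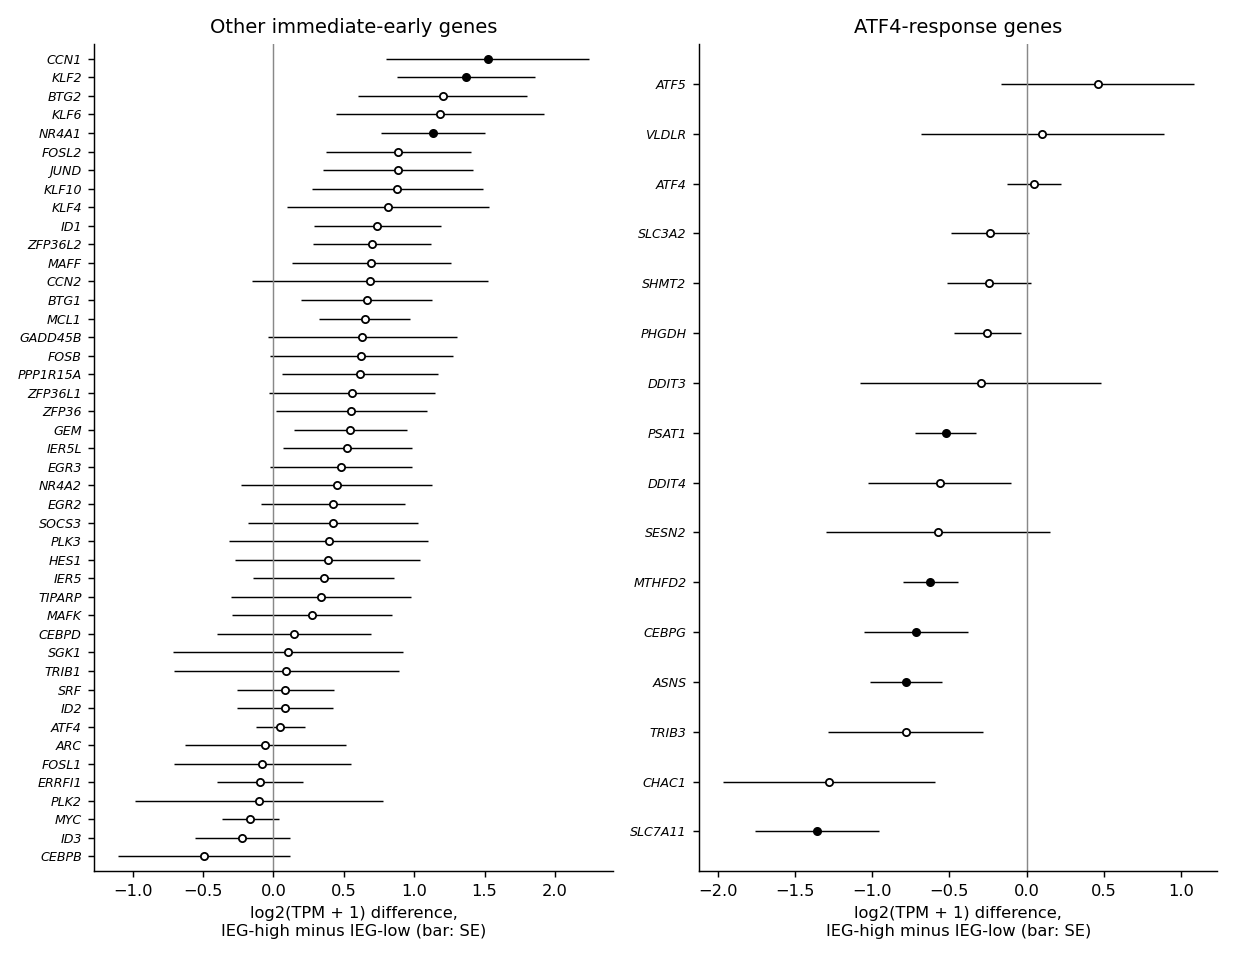
Difference in log2(TPM + 1), IEG-high minus IEG-low, with its SE, for the 44 tested IEGs outside the score (left) and the 16 ATF4-response genes (right); filled points have an unadjusted p under 0.05. Of the other IEGs 37 lie above 0, and of the ATF4-response genes 13 lie below.

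The ERK list, made of the DUSP, SPRY and SPRED feedback inhibitors with the ERK-induced ETV4, ETV5 and PHLDA1 and the interleukin-1 receptor subunit IL1RAP, had 11 of 16 members tested, of which 2 had an unadjusted p under 0.05 on the higher side and 0 on the lower. Of all genes, 3.53% were at that level on the higher side and 1.95% on the lower. The median difference was 0.14 beside 0.07 over all genes, and 0.02 with the term for genes. Of the 11 tested, PHLDA1 had -0.55 and IL1RAP 0.46. DUSP2, a nuclear MAP kinase phosphatase, was above 0 in 11 IEG-high and 4 IEG-low cells, a difference of 1.54 ± 0.59. DUSP5, which binds ERK in the nucleus, was above 0 in 6 IEG-high cells and 1 IEG-low cell, a difference of 0.83 ± 0.32. DUSP6, the cytoplasmic ERK phosphatase, was at 0 in all 28 cells. Among the 3 most abundant members, the medians of SPRED2 were 23.4 TPM in IEG-high and 17.7 TPM in IEG-low cells, of DUSP7 18.4 and 16.3 TPM, and of SPRY2 12.4 and 14.7 TPM, IEG-high first.

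Targets of SRF and its actin-sensing partner MRTF had 15 of 17 members tested, with a positive difference for 13, a median of 0.28 and 0.30 with the term for genes, beside 56.1% positive and a median of 0.07 over all genes. The 3 with an unadjusted p under 0.05 were all on the higher side, as were 3.53% of all genes, and 0 of the 3 had such a p with the term. TGFB1I1 (Hic-5), a focal adhesion protein, was above 0 in 12 IEG-high and 6 IEG-low cells, a difference of 1.89 ± 0.67. ACTN1, which crosslinks actin, had 28.97, 98.4 and 217 TPM in IEG-high cells, against 9.13, 38.9 and 214 TPM in IEG-low cells. ACTG1, cytoplasmic gamma-actin, had medians of 1297 TPM in IEG-high and 1030.3 TPM in IEG-low cells, a difference of 0.41 ± 0.17. The median was 2650 TPM in IEG-high and 2199 TPM in IEG-low cells for ACTB, and 420.2 and 368 TPM for FLNA, IEG-high first.

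Heat-shock genes, the chaperones induced by unfolded protein, had a positive difference for 13 of 15 tested. Of these 2 had an unadjusted p under 0.05, both higher, as were 3.53% of all genes. The median difference was 0.28, and 0.24 with the term for genes, beside the same 56.1% positive and 0.07 over all genes. HSPA8, the constitutive HSC70 chaperone, had medians of 1231 TPM in IEG-high and 944 TPM in IEG-low cells (0.42 ± 0.18), and the small heat-shock protein HSPB1 64.2 and 41.6 TPM (0.65 ± 0.32), IEG-high first. HSP90AB1 had medians of 1949 TPM in IEG-high and 1743 TPM in IEG-low cells, and HSP90AA1 1176 and 986 TPM.

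Genes of the ATF4 response had mostly negative differences. ATF4 is the transcription factor that is translated when eIF2α is phosphorylated, and its targets make and import amino acids. All 16 members were tested and 0 were called. At an unadjusted p under 0.05, 5 were lower and 0 higher, beside 1.95% and 3.53% of all genes. Of the 16 differences 13 were negative, as were 8303 of the 18924 over all genes. The median was -0.54 beside 0.07 over all genes, -0.48 in the first set and -0.44 in the second, and -0.29 with genes at 1 TPM or more as a further term. ASNS, asparagine synthetase, had 141, 399 and 840 TPM in IEG-high cells, against 391, 779 and 1229 TPM in IEG-low cells, a difference of -0.78 ± 0.23 (p = 0.00186, limma adjusted p = 0.779, rank permutation p = 0.00527). MTHFD2, an enzyme of mitochondrial one-carbon metabolism, had 226, 441 and 1061 TPM in IEG-high cells, against 295, 534 and 1926 TPM in IEG-low cells, a difference of -0.62 ± 0.18. SLC7A11, the cystine importer, had 3.89, 40.8 and 181 TPM in IEG-high cells, against 51.3, 113.69 and 194 TPM in IEG-low cells, a difference of -1.36 ± 0.40. The remaining pair at this level were PSAT1 of serine synthesis (-0.53 ± 0.20) and the ATF4 partner CEBPG (-0.72 ± 0.34). With genes at 1 TPM or more as a further term 1 of the 5, SLC7A11, still had an unadjusted p under 0.05 (-1.23, p = 0.0233). With the same term ASNS had -0.60 (p = 0.0512), CEBPG -0.86 (p = 0.0537), MTHFD2 -0.31 (p = 0.164) and PSAT1 -0.28 (p = 0.268).

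ATF4 mRNA itself had a difference of 0.05 ± 0.18, and those of the stress factors DDIT3 (-0.30 ± 0.78) and DDIT4 (-0.56 ± 0.46) did not pass at an unadjusted p of 0.05 either. Among 12 chaperone and unfolded-protein genes of the endoplasmic reticulum, 6 differences were positive and 6 negative, beside 56.1% positive over all genes. The median was 0.01, and 0.27 with the term for genes. XBP1, whose mRNA is spliced by IRE1, was the one with an unadjusted p under 0.05 (medians of 81.7 TPM in IEG-high and 149 TPM in IEG-low cells, -0.72 ± 0.32, and -0.33 with the term). Over all genes, 1.95% were lower and 3.53% higher at that level. The 3 most abundant, HSP90B1, CALR and PDIA6, had medians of 278, 218 and 157 TPM in IEG-high cells and 349, 174 and 181 TPM in IEG-low cells.

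**Figure D5:**
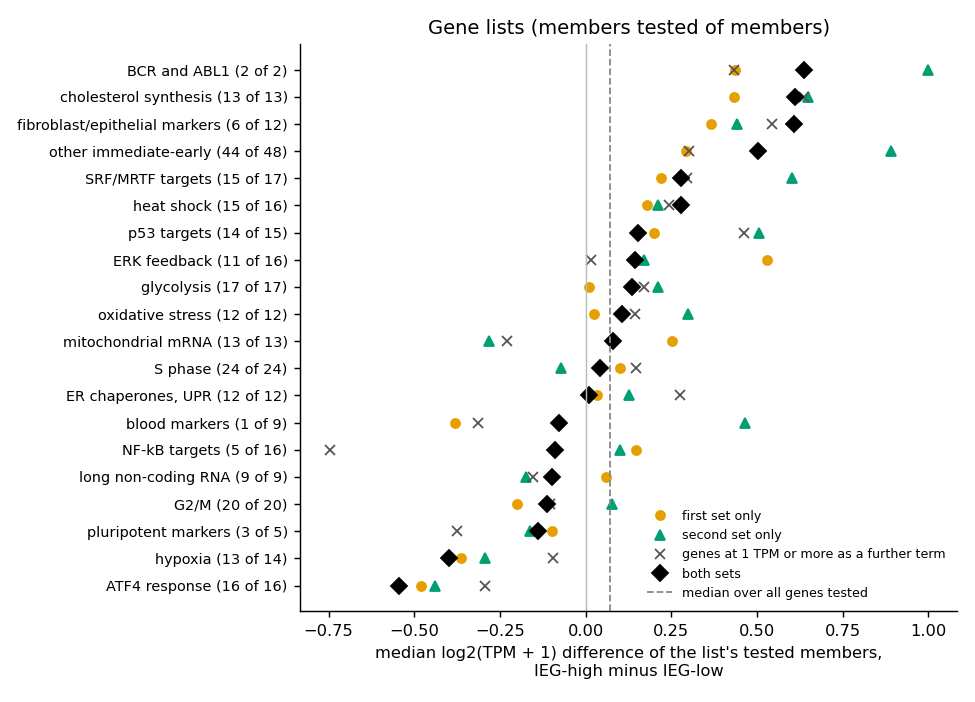
Median log2(TPM + 1) difference, IEG-high minus IEG-low, of the tested members of each list (black: both sets; circles first set, triangles second set, crosses with genes at 1 TPM or more as a further term), with the median over all genes as a dashed line at 0.07. The other IEGs lie at 0.50 and the ATF4 response at -0.54, and no member of any list was called.

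The cell-cycle, p53 and NF-κB lists had medians between -0.11 and 0.15, beside 0.07 over all genes. At an unadjusted p under 0.05, 3.53% of all genes were higher and 1.95% lower. S-phase genes had a median of 0.04 over 24 tested (0.15 with the term for genes), with TOP2A at medians of 679.5 TPM in IEG-high and 858 TPM in IEG-low cells, TYMS at 473 and 484 TPM and RRM2 at 434 and 441 TPM, IEG-high first. MCM6, a subunit of the replicative helicase, was the one member of these 24 with an unadjusted p under 0.05 (0.71 ± 0.32), near the share over all genes. G2/M genes had a median of -0.11 over 20 tested (-0.10 with the term) and none at that level, with medians for NUSAP1, CCNB1 and CDK1 of 386, 206 and 248 TPM in IEG-high cells and 396, 228 and 175 TPM in IEG-low cells. The p53 targets had a median of 0.15 over 14 tested (0.46 with the term), with ZMAT3 on the higher side (1.17 ± 0.56) and TNFRSF10B on the lower. MDM2 and AEN had medians of 151 and 61.9 TPM in IEG-high cells and 163 and 49.4 TPM in IEG-low cells. Only 5 of 16 NF-κB targets were tested, with a median of -0.09 (-0.75 with the term), and NFKBIA, NFKB1 and NFKB2 had medians of 38.015, 32.8 and 13.4 TPM in IEG-high cells and 39.3, 20.2 and 11.5 TPM in IEG-low cells.

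Markers of the line and of other cells were checked. BCR and ABL1, the partners of the HAP1 fusion, had medians of 18.1 and 8.42 TPM in IEG-high cells and 11.0 and 4.59 TPM in IEG-low cells, neither past the adjusted test, and a median difference of 0.64 (0.43 with the term for genes). Of 9 blood markers 4 (SPI1, HBB, CD14 and MPO) were at 0 in all 56 cells, and the list summed to at most 2.04 TPM in any IEG-high cell and 1.49 TPM in any IEG-low cell, with PTPRC at 0 in both groups, CD34 at medians of 0.07 TPM in IEG-high and 0.205 TPM in IEG-low cells and HBA1 above 0 in 1 IEG-high cell. Of 12 fibroblast, epithelial and pigment markers 5 were at 0 in all cells. The list summed to 2.90, 68.1 and 110.04 TPM in IEG-high cells, against 3.41, 32.7 and 108.21 TPM in IEG-low cells, PAX6 and PDGFRA being the most abundant and MITF above 0 in 6 IEG-high and 4 IEG-low cells. Its 6 tested members had 5 positive differences and 1 negative, beside 56.1% positive over all genes. Their median difference was 0.61 (0.54 with the term for genes), which is above that of the other IEGs. COL1A1 was the one marker with an unadjusted p under 0.05 (above 0 in 10 IEG-high and 3 IEG-low cells), whereas COL3A1, LUM and POSTN were at 0 throughout. Over all genes, 3.53% were higher at that level. Of the pluripotency list, POU5F1 had medians of 1374 TPM in IEG-high and 1328 TPM in IEG-low cells, and TDGF1 and NANOG were at a median of 0 in both.

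Unspliced RNA, counted in introns, gave calls that rested on few cells. Of the scored genes, 5 were in the unspliced table, and JUN, IER3 and ATF3 have no unspliced value here. FOS, JUNB and DUSP1 were at 0 in all 56 cells, EGR1 had 1 count in 1 IEG-high cell, and IER2 1.5 counts in 1 IEG-high cell, with 0 in every IEG-low cell for both. These values are gene-body minus exon counts, so a gene without introns is at 0 whether or not it is transcribed. Whether this holds for any of these 5 genes was not tested. Of 10135 genes tested with edgeR's quasi-likelihood test, 42 (0.414%) were called higher and 13 (0.128%) lower in IEG-high cells at a Benjamini-Hochberg adjusted p under 0.05, but a rank permutation test within sets called 0, with 659 genes at an unadjusted p under 0.05. DESeq2 called 132. Of the 55 edgeR calls, 24 had a rank p under 0.05, 25 were also called by DESeq2, 15 had a median of 0 in both groups and 34 were at 0 in more than 7 of the 14 cells of their lower group. With each cell left out in turn edgeR called 4 to 49 genes, and 22 of the 28 cells moved the count by over 1.5 times. Genes entered by a mean of at least 5 counts over the 56 cells, and 17 of the 55 (14 higher, 3 lower) had a mean under 5 in the 42 cells outside their higher group, so that they were tested only through the group where they are high and their calls carry no weight.

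The edgeR calls named here also had a rank p under 0.05 and kept a mean of 5 or more outside their higher group. On the higher side, ZNF680, a zinc-finger gene, was above 0 in 12 IEG-high and 10 IEG-low cells, with medians of 1.9 and 0.2 and highest values of 398 and 1 counts, IEG-high first (edgeR adjusted p = 0.0212, rank permutation adjusted p = 0.627). GSTCD was above 0 in 5 IEG-high cells and 1 IEG-low cell, and the activin receptor ACVR2A in 7 IEG-high and 3 IEG-low cells. ISCA1, SLC25A15, DVL3 and RP11-530N7.3 would also have been named, but were tested only through their higher group and are given without a p. ISCA1, an iron-sulphur cluster assembly protein, was above 0 in 12 IEG-high and 6 IEG-low cells, SLC25A15, a mitochondrial ornithine carrier, in 10 IEG-high and 4 IEG-low cells, and DVL3, a Wnt signal transducer, in 9 IEG-high cells and 1 IEG-low cell. RP11-530N7.3, on the lower side, was above 0 in 7 IEG-high and 11 IEG-low cells. The calls on the lower side included CCDC28A, LINC00484 and DPY19L1P2. LINC00484, a non-coding RNA, was above 0 in 7 IEG-high cells with at most 5.67 counts and in 13 IEG-low cells with up to 468 counts. No fold is given for these genes, since most had one group at or near 0.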

How the data were processed

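scRR-seq separates the DNA and RNA of one sorted cell. Per the study's methods, RNA reads were downsampled to a common library size, aligned with Hisat2 in ramdaq to hg38 and counted with featureCounts on GENCODE v38; the deposited gene TPM values are the authors' and were used as spliced RNA; a further spliced table repeats them for genes with a copy state and was not used. The deposited unspliced values are per the authors gene-body minus exon read counts with negative values set to 0; they are fractional, differ in total between cells and were rounded here to whole numbers, with the deposited values taken to be estimated counts. No strand setting of the counting was found in the methods or labels, so overlapping and antisense genes cannot be told apart. DNA reads were aligned with BWA (0.7.17-r1188 in the submitters' processing notes) and the authors deposited a copy state (1-copy, 2-copy or no call) per 40-kb bin and per gene, with chromosomes 1, 15 and X left out.

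The members, gene lists and tests were chosen with earlier results of these data known. Cells were grouped by the score given above. Spliced RNA was tested with limma 3.58.1 (trend, robust, set term) on log2(TPM + 1) for genes above 0 in at least 20% of 56 cells. Unspliced counts with a mean of at least 5 were tested with edgeR 4.0.16 (TMM), DESeq2 1.42.0 (poscounts size factors) and rank permutation (100000 draws) in R 4.3.3. The threshold was an adjusted p of 0.05. The TPM table holds no counts, so no counting interval is given. The highest unspliced total (1353931) lies above the library size stated for the downsampling, so whether the deposited tables come from the downsampled reads could not be told. Per direction, genes named were the 12 largest differences among genes called with a mean of at least 5 TPM in their higher group, or, with fewer than 8, the lowest p-values up to 8; of each list the called genes and the 3 most abundant; and up to 6 unspliced calls with a rank p under 0.05, of which 1 is not reported here. No library pair was identical (highest Pearson's r 0.817). Alternatives are given in the closing section.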

Additional observations from a re-analysis of the deposited data

How the results depend on the processing

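The spliced contrast called 0 genes under 49 of 51 alternatives: pseudocounts of 0.1 and 10, other filters, centring, the rank test, other group sizes, each set alone, a replication score term, and, added after seeing the data, a term for genes at 1 TPM or more. DPF3 was the exception, with 1 call when JUN was left out of the score, and leaving out single cells gave 0 to 1 calls (1 without cell 38). Of the genes named from the spliced contrast, the 44 refitted under each alternative kept their direction in every alternative run except BNIP3L, at 0.42 with the second set only. The 55 unspliced calls became 132 with DESeq2, 0 with the rank permutation test, 12 with no filter on the mean, 175 with no set term, 0 with 10 cells a group, 0 with limma on log2(counts per median total + 1), chosen after seeing the data, and 4 to 49 with single cells left out (4 without cell 25). The cause was not tested.

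The difference in genes at 1 TPM or more was 685 with the first set only (exact permutation adjusted p = 0.215) and past the threshold in the other alternatives. The replication score difference turned to 0.0919 with 18 cells a group, 1.23 with no set mean subtracted and 3.79 with the second set only. With no set mean subtracted the mitochondrial share differed by -1.86, the share of the 50 most abundant genes by -0.00668 and the ribosomal share by 1.68 percentage points and the unspliced total by -36490 counts. With the second set only the mitochondrial share differed by -0.312 and that of the 50 most abundant genes by -0.185; none of these reversals passed its test. List medians under alternatives chosen after seeing the data moved by more than the spread of the list mean between cells for the other IEGs (0.17 at a pseudocount of 10, 0.89 with the second set only), ERK feedback (0.74 with 10 cells a group) and blood markers (0.47 with the second set only). No difference between sets passed: 0 genes in limma's test of the interaction, with 661 at an unadjusted p under 0.05, and no library measure (exact permutation, lowest adjusted p 0.356). No paired analysis was possible because the IEG-high and IEG-low groups hold different cell numbers, and a number marks only the DNA and RNA of one cell.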

Other observations

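Genes of cholesterol synthesis had positive differences for all 13 members tested, beside 56.1% positive over all genes. The median was 0.61 beside 0.07 over all genes, with 0.43 in the first set and 0.65 in the second. With genes at 1 TPM or more as a further term it was 0.64. Of the 13 members, 0 were called and 2 had an unadjusted p under 0.05 (limma), both higher, as were 3.53% of all genes. With the term for genes 0 of the 2 had such a p. IDI1, isopentenyl diphosphate isomerase, had 33.9, 128 and 350.4 TPM (lowest, median and highest) in IEG-high cells, against 8.6, 64.7 and 145 TPM in IEG-low cells (0.92 ± 0.38), and the desaturase SC5D had medians of 56.7 TPM in IEG-high and 28.7 TPM in IEG-low cells (1.27 ± 0.59, and 0.64 with the term). FDFT1 and CYP51A1 had medians of 170.4 and 84.9 TPM in IEG-high cells and 122 and 72.1 TPM in IEG-low cells. Of 13 hypoxia genes 8 had negative differences, as had 8303 of the 18924 genes tested. The median was -0.40 beside 0.07 over all genes, and -0.10 with the term for genes. VEGFA, the vascular growth factor, had 8.03, 83.7 and 211 TPM in IEG-high cells, against 67.97, 150.1 and 252 TPM in IEG-low cells (-1.11 ± 0.40). The mitophagy receptor BNIP3L had medians of 30.0 TPM in IEG-high and 66.7 TPM in IEG-low cells (-1.32 ± 0.52, rank permutation p = 0.0913). The difference of BNIP3L was -2.29 in the first set and 0.42 in the second. ENO2, of the same list, had medians of 101.6 and 108.6 TPM, IEG-high first.

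At an unadjusted p under 0.05, 3.53% of all genes were higher and 1.95% lower, and the median over all genes was 0.07. Glycolysis genes had a median of 0.14 over 17 tested, and 0.17 with the term for genes. Of these SLC16A3, a lactate exporter (1.57 ± 0.57), and ALDOC (1.12 ± 0.55) had an unadjusted p under 0.05, and GAPDH, LDHB and ENO1 had medians of 2122, 1307 and 1156 TPM in IEG-high cells and 2023, 1206 and 1149 TPM in IEG-low cells. Oxidative stress genes had a median of 0.11 (0.15 with the term), with the metallothionein MT1X above 0 in 14 IEG-high and 8 IEG-low cells (1.63 ± 0.73), and FTH1, TXN and MT2A at medians of 743, 388 and 298 TPM in IEG-high cells and 659, 376 and 179 TPM in IEG-low cells. Mitochondrial mRNAs had a median of 0.08, 0.25 in the first set and -0.28 in the second, and -0.23 with the term, with MT-CO1, MT-ND4 and MT-ND4L at medians of 9842, 5517 and 4499 TPM in IEG-high cells and 8142, 5518 and 4543 TPM in IEG-low cells. Of 9 long non-coding RNAs, 4 had positive and 5 negative differences, with a median of -0.10 (-0.16 with the term). At an unadjusted p under 0.05, 1 was higher and 1 lower. MIR17HG, host of a MYC-driven miRNA cluster, had medians of 25.01 TPM in IEG-high and 0.765 TPM in IEG-low cells (2.23 ± 0.83). PURPL, a p53-induced RNA, had 15.8 and 64.1 TPM (-2.19 ± 0.80), IEG-high first. With the term for genes the differences were 0.61 (limma p = 0.532) for MIR17HG and -1.10 (limma p = 0.274) for PURPL. MALAT1, SNHG1 and GAS5 had medians of 2228, 860 and 456 TPM in IEG-high cells and 3156, 795 and 420 TPM in IEG-low cells.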
